A study of Mus musculus with 34 samples.

Results

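The series is RNA-seq of mouse bone marrow-derived macrophages, grown from marrow cells in M-CSF, that carry lesions of clonal hematopoiesis. Here 3 vehicle-treated Jak2VF libraries were set against 3 vehicle-treated Dnmt3aKO libraries, 6 of 34 samples in all, taken by their genotype and treatment labels. Jak2VF cells were Jak2V617F/WT;Vav-Cre, heterozygous for the mutant allele. Dnmt3aKO cells were Dnmt3afl/fl;Vav-Cre, and the 3 WT libraries set beside them were Vav-Cre alone. All groups carried Vav-Cre, in which the Vav promoter drives Cre in blood-forming cells. Mice were 10 to 14 weeks old. Marrow cells differentiated over 6 days in M-CSF at 10 ng/ml, and after a rest of 24 h the macrophages received vehicle for 24 h. Matching cultures of both genotypes received LDL at 200 mg/dL for the same 24 h. The labels do not say whether libraries of a group came from separate mice, so p-values measure the spread between libraries, which may be technical.

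Clonal hematopoiesis is the outgrowth of blood cells that carry an acquired mutation, and JAK2 and DNMT3A are among the genes most often mutated in it. JAK2 is a tyrosine kinase that binds the receptors for erythropoietin, thrombopoietin, GM-CSF, IL-3 and interferon gamma and phosphorylates STAT transcription factors, and the V617F change makes it active without ligand. DNMT3A adds methyl groups to unmethylated CG pairs in DNA, and cells that lose it carry less methylation at many sites.

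Total counts ran from 34581975 to 43904761 in the 6 libraries. The macrophage genes Lyz2, Csf1r, Cd68 and Adgre1 were present in every library, and the mitochondrially encoded transcripts were at 0 in all of them. Jak2VF library 3 stood apart from its group: across genes its log CPM (a gene's counts relative to the scaled library total) correlated at 0.9889 with library 1 and 0.9934 with library 2, against 0.9964 between those 2, while pairs of Dnmt3aKO libraries lay between 0.9965 and 0.9975. The Jak2VF libraries also differed by gene length. In the shortest 20% of genes the median deviation from the mean of the 24 libraries fitted together was 0.31, 0.19 and -0.11 log2 units in Jak2VF libraries 1, 2 and 3, against -0.03, 0.04 and -0.02 in the Dnmt3aKO libraries. In the longest 20% these medians were -0.29, -0.16 and 0.05 in Jak2VF libraries, against 0.05, -0.02 and 0.04 in Dnmt3aKO libraries.

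The targeted genes differed between the genotypes. Jak2, on chromosome 19, was counted at 54.6, 58.6 and 68.2 CPM in Jak2VF libraries, against 110, 120 and 112 CPM in Dnmt3aKO libraries, and WT libraries lay between them at 78.7, 85.7 and 91.7 CPM. The log2 fold change, Jak2VF over Dnmt3aKO as throughout unless WT is named, was -0.92 ± 0.13 (SE; edgeR quasi-likelihood test, Benjamini-Hochberg adjusted p = 5.0e-05). Set against WT, Jak2 was lower in Jak2VF (-0.50, adjusted p = 0.0209) and higher in Dnmt3aKO (0.42, adjusted p = 0.0461). Dnmt3a, on chromosome 12, stood at 39.0, 43.7 and 56.1 CPM in Jak2VF libraries, against 36.6, 32.6 and 32.7 CPM in Dnmt3aKO libraries, with WT libraries at 54.6, 65.9 and 71.2 CPM. Its difference of 0.45 ± 0.15 had an adjusted p of 0.0397 by the same test and lost its call without any 1 of Dnmt3aKO libraries 1, 2 and 3 or Jak2VF libraries 2 and 3, reaching 0.29 without Jak2VF library 3. The call was also lost with the replicate number of the titles added to a fit of only the libraries compared. Dnmt3a was lower in Dnmt3aKO than in WT by -0.91 (adjusted p = 2.0e-04), and lay at -0.47 in Jak2VF against WT (adjusted p = 0.0517). Counts over the whole gene test neither the floxed exon nor the altered base. Tet2, another gene of clonal hematopoiesis, had a log2 fold change of -0.67 ± 0.30 (adjusted p = 0.12).

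**Figure D1:**
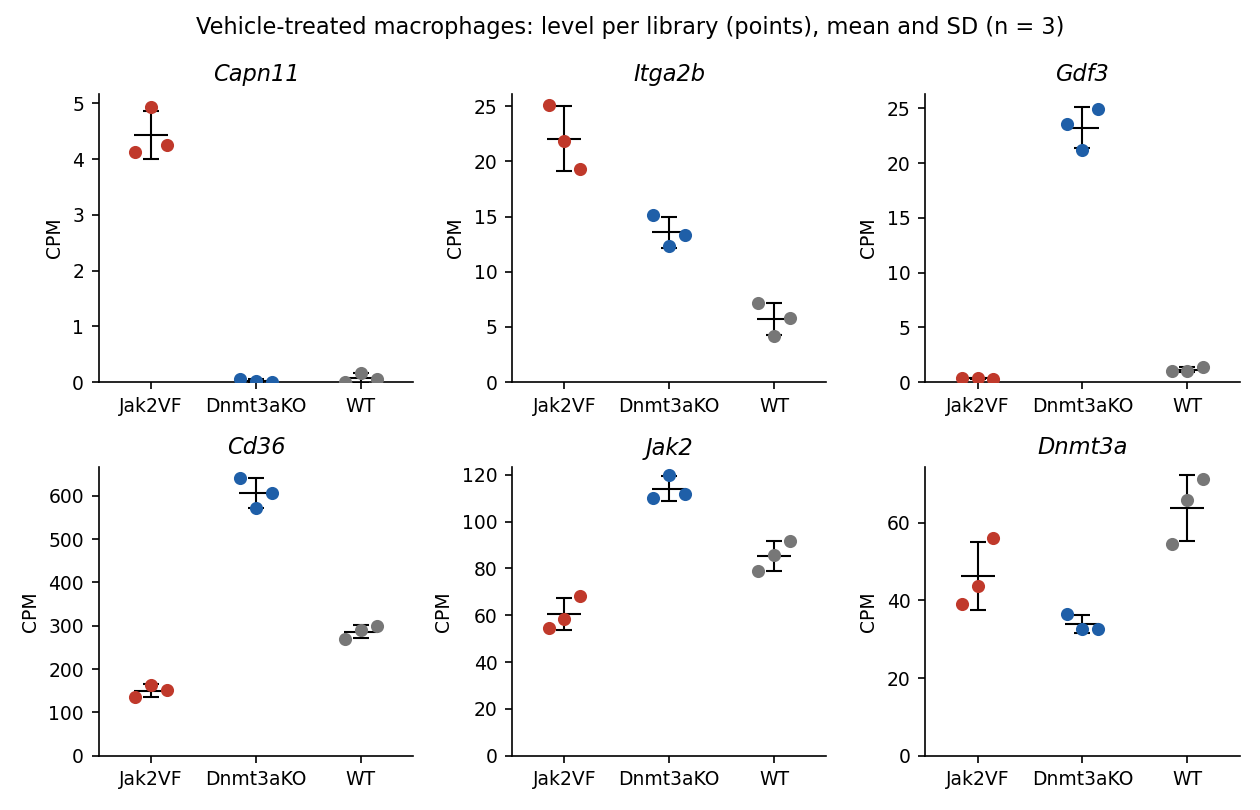
Level in CPM (y axes, linear, from 0) of Capn11, Itga2b, Gdf3, Cd36, Jak2 and Dnmt3a in each vehicle-treated library. Points are libraries, long bars means and whiskers 1 SD (n = 3); the Jak2VF and Dnmt3aKO points do not overlap in any panel, and Gdf3 lay between 21.2 and 24.9 CPM in Dnmt3aKO and reached at most 1.39 CPM elsewhere.

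The 4 genes described first mark the contrast from different sides: a protease and a platelet integrin on the Jak2VF side, a growth factor and a lipid receptor on the Dnmt3aKO side. Capn11 encodes a calpain, a calcium-dependent cysteine protease known mainly from the testis (ENSMUSG00000058626, chromosome 17, 45630204 to 45659325, mm10). It was counted at 4.13, 4.93 and 4.26 CPM in Jak2VF libraries, against 0.0484, 0.0255 and 0.0 CPM in Dnmt3aKO libraries and 0.0, 0.17 and 0.0525 CPM in WT libraries. Every Jak2VF library thus held it and the other libraries were near 0. The 522 reads in Jak2VF against 3 in Dnmt3aKO gave a ratio of 177, with an exact 95% interval from 60.3 to 862 that covers counting error only. The edgeR test gave an adjusted p of 4.2e-09. With LDL it stood at 3.58, 3.72 and 3.35 CPM in Jak2VF, against 0.0418, 0.145 and 0.0279 CPM in Dnmt3aKO (adjusted p = 3.8e-08). None of the other 11 tested genes of the calpain list, which includes the small subunit and the inhibitor calpastatin, was called by edgeR, with adjusted p of 0.102 or more.

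Itga2b encodes integrin alpha IIb (CD41), which pairs with integrin beta 3 as the platelet fibrinogen receptor (ENSMUSG00000034664, chromosome 11, 102453297 to 102470122). It was counted at 25.1, 21.8 and 19.3 CPM in Jak2VF libraries, against 15.1, 12.3 and 13.3 CPM in Dnmt3aKO libraries and 7.13, 4.21 and 5.85 CPM in WT libraries. The 3 groups were ordered without overlap. The log2 fold change was 0.70 ± 0.19 (adjusted p = 0.0127). Against WT it was higher in both genotypes, by 1.94 in Jak2VF (adjusted p = 3.2e-06) and by 1.24 in Dnmt3aKO (adjusted p = 1.7e-04). The genotype difference fell short of the threshold without Jak2VF library 1 (0.61, adjusted p = 0.0621) or without Dnmt3aKO library 2 (0.65, adjusted p = 0.0527). It also did so with the replicate number of the descriptions added to the fit of all groups. With LDL the genotypes overlapped, at 12.2, 14.3 and 11.6 CPM in Jak2VF and 11.4, 12.8 and 11.8 CPM in Dnmt3aKO (0.08 ± 0.20, adjusted p = 0.868). The vehicle difference minus the LDL difference was 0.62 ± 0.27 and did not pass its own test (adjusted p = 0.72).

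Gdf3 encodes a secreted growth factor of the TGF-beta family, known from early embryos and fat tissue (ENSMUSG00000030117, chromosome 6, 122605403 to 122610087). It was counted at 0.411, 0.375 and 0.271 CPM in Jak2VF libraries, against 23.6, 21.2 and 24.9 CPM in Dnmt3aKO libraries and 1.04, 1.02 and 1.39 CPM in WT libraries. The log2 fold change was -6.02 ± 0.19, 64.8-fold lower in Jak2VF (adjusted p = 1.1e-14). Gdf3 was above WT in Dnmt3aKO (4.33 ± 0.16, adjusted p = 4.6e-13) and below WT in Jak2VF (-1.69 ± 0.22, adjusted p = 4.9e-05). With LDL the gap was of the same kind, at 0.0819, 0.189 and 0.275 CPM in Jak2VF and 16.2, 17.9 and 15.6 CPM in Dnmt3aKO (-6.48 ± 0.21).

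Cd36 encodes a scavenger receptor that takes up oxidised lipoproteins and long-chain fatty acids (ENSMUSG00000002944, chromosome 5, 17781690 to 17888801). It was counted at 135, 164 and 151 CPM in Jak2VF libraries, against 641, 571 and 607 CPM in Dnmt3aKO libraries and 270, 291 and 299 CPM in WT libraries. Jak2VF lay below WT and Dnmt3aKO above it, with no overlap. The log2 fold change of -2.01 ± 0.10 is 4.04-fold lower in Jak2VF (adjusted p = 9.1e-12). Against WT the changes were -0.93 in Jak2VF (adjusted p = 2.6e-06) and 1.08 in Dnmt3aKO (adjusted p = 9.6e-08). With LDL all values were higher, at 440, 393 and 421 CPM in Jak2VF and 1390, 1440 and 1510 CPM in Dnmt3aKO, and the genotype difference was -1.79 ± 0.10.

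The promoter windows of 3 of these genes are shown for their CG pairs, since one genotype lacks a CG methyltransferase; methylation itself was not measured. Each window runs 5′ to 3′ on the gene's strand from 250 bases before to 50 bases after the RefSeq start (GRCm38.p6, the assembly of mm10), with CG pairs in capitals. The windows lie on the minus strand, at chr17:45659260-45659559 for Capn11, chr11:102469834-102470133 for Itga2b and chr5:17835847-17836146 for Cd36. The Cd36 window lies well inside the gene span given above, so it may not be the gene's only start. Sequence at the 5′ end of that span was not read.
Capn11: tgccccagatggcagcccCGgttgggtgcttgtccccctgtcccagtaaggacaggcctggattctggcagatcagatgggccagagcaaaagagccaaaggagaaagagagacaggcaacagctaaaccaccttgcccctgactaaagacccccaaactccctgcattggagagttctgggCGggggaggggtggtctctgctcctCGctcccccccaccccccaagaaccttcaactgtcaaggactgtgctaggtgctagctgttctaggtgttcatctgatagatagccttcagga
Itga2b: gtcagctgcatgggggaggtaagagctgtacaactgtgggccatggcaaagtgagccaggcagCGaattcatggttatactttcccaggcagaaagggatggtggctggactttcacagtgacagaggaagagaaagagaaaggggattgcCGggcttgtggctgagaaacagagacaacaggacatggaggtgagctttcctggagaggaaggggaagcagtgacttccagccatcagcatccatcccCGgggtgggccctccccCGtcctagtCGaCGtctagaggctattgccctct
Cd36: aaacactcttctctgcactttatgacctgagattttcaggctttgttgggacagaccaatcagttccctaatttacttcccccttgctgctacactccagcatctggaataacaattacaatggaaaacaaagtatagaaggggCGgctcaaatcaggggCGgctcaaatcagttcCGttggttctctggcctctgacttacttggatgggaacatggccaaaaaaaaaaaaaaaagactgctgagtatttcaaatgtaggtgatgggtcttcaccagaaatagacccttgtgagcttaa
The windows hold 3 CG pairs for Capn11, 6 for Itga2b and 3 for Cd36, against a median of 7 and quartiles of 3 and 20 over 32851 windows of the same length. None of the 3 holds TTCNNNGAA, the STAT motif, which reads alike on both strands and is in 8.3% of all windows. None holds AGATAA, a form of the GATA motif, on either strand, and 11.2% of all windows do. Other forms of that motif were not counted, and the Capn11 window holds TGATAG and AGATAG near its 3′ end.

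Over the whole transcriptome the genotypes differed widely. Of 19444 genes tested, 3729 (19.2%) had an adjusted p under 0.05 by edgeR's quasi-likelihood test, of which 1787 (9.19%) were higher and 1942 (9.99%) lower in Jak2VF. Scaled by library totals alone, 2499 were higher and 1327 lower. A change of at least 2-fold was reached by 471 of the higher and 379 of the lower genes, 850 together (4.37%). The 3 against 3 libraries did not overlap for 7087 genes (36.4%). Lists of pathway genes hold mostly well expressed genes, and among the 9828 genes at 10 CPM or more 23.0% were called. Without Dnmt3aKO library 1 the count fell to 2425, and without Jak2VF library 3 it was 4573. Against WT, 9.55% of genes were called for Jak2VF and 11.1% for Dnmt3aKO. With the trend of each library on gene length removed, 4383 genes were called, and 3368 of the 3729 were among them, all in the same direction.

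**Figure D2:**
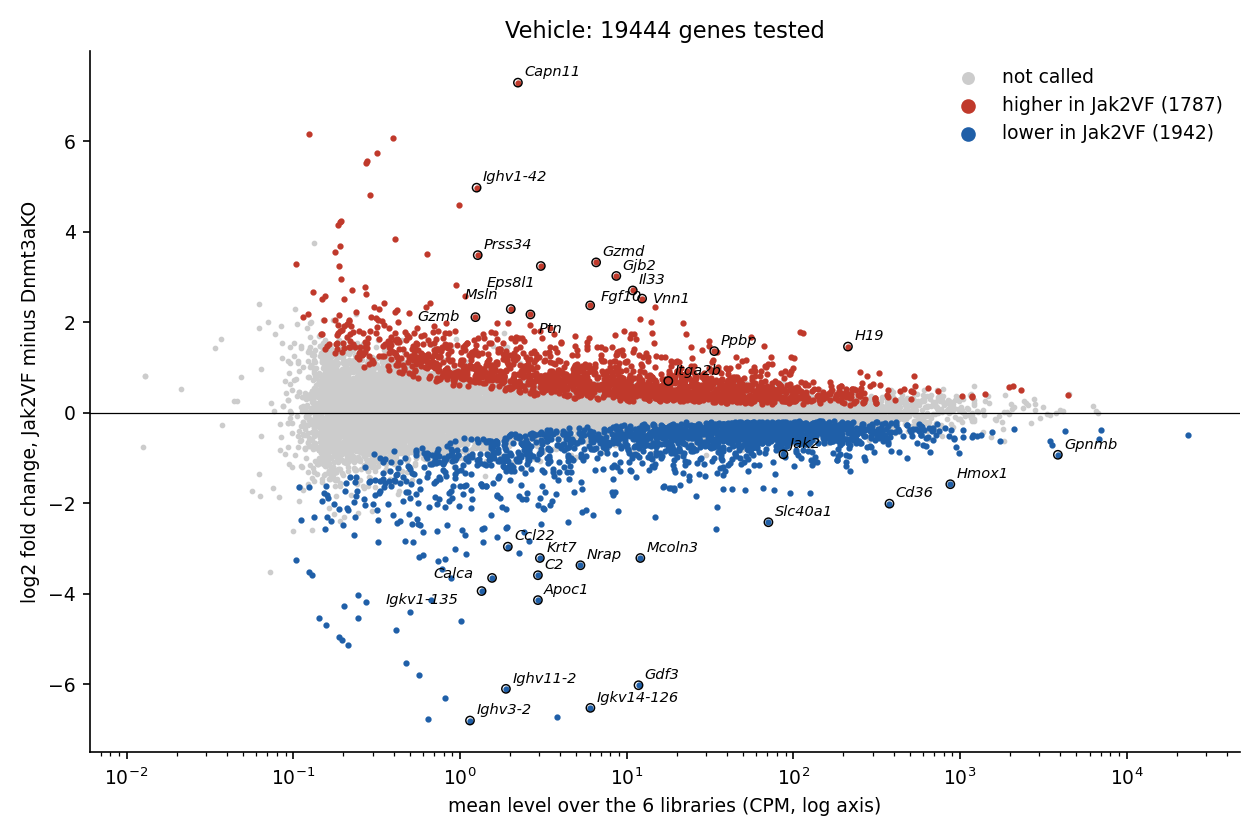
Log2 fold change, Jak2VF minus Dnmt3aKO (y axis), against mean level over the 6 vehicle-treated libraries (x axis, CPM, log scale); each point is 1 of 19444 genes, red where higher and blue where lower in Jak2VF at an adjusted p under 0.05. Capn11 is at the top and Gdf3 near the bottom, and Cd36, Hmox1 and Gpnmb are falls among abundant transcripts.

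The 12 largest rises in Jak2VF came from several kinds of gene. Beside Capn11, Prss34, a mast cell and basophil protease, stood at 2.97, 2.52 and 1.55 CPM in Jak2VF libraries, against 0.291, 0.153 and 0.176 CPM in Dnmt3aKO libraries (3.48 ± 0.45, adjusted p = 1.2e-05). Gzmd, a granzyme, stood at 16.9, 11.4 and 7.57 CPM in Jak2VF, against 1.57, 0.995 and 1.01 CPM in Dnmt3aKO (3.32 ± 0.32, adjusted p = 2.8e-07). Gzmd and Gzmb (2.11) belong to a family of similar neighbouring genes whose reads the counting may have split between copies. Several of the other rises were genes that WT libraries held at or near the Jak2VF level. Eps8l1, an actin regulator of the EPS8 family, stood at 6.27, 5.25 and 5.08 CPM in Jak2VF, against 0.508, 0.561 and 0.68 CPM in Dnmt3aKO and a WT mean of 4.92 CPM. Its change was 0.17 in Jak2VF against WT (adjusted p = 0.435) and -3.07 in Dnmt3aKO against WT (adjusted p = 9.6e-12). Fgf10, a fibroblast growth factor, and Ptn, the growth factor pleiotrophin, followed the same order. Fgf10 differed by 2.37 between the genotypes, with 0.15 in Jak2VF and -2.21 in Dnmt3aKO against WT. Ptn differed by 2.17, with -0.07 in Jak2VF and -2.24 in Dnmt3aKO against WT.

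Gjb2, Il33 and Vnn1 lay above WT in Jak2VF and below WT in Dnmt3aKO. Gjb2, the gap junction protein connexin 26, stood at 15.7, 15.3 and 15.4 CPM in Jak2VF, against 1.74, 2.09 and 1.86 CPM in Dnmt3aKO and a WT mean of 7.76 CPM (3.02 ± 0.15, adjusted p = 9.1e-12). Il33, an alarmin cytokine of the IL-1 family, stood at 15.2, 19 and 22.7 CPM in Jak2VF, against 2.91, 2.98 and 2.87 CPM in Dnmt3aKO, with a WT mean of 12.7 CPM (2.70 ± 0.15, adjusted p = 5.0e-11). Il1rl1, which encodes ST2, the receptor for IL-33, was also higher, at 39.7, 44.6 and 53.3 CPM in Jak2VF, against 18.8, 21.7 and 21.2 CPM in Dnmt3aKO (1.16 ± 0.14, adjusted p = 5.1e-06). Vnn1, a pantetheinase, rose by 2.52, and Msln, which encodes mesothelin, by 2.29. The remaining rise was the immunoglobulin segment Ighv1-42, with 169, 47 and 82 reads in Jak2VF libraries against 0, 0 and 9 in Dnmt3aKO libraries.

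The 12 largest falls were led by immunoglobulin segments and Gdf3. Ighv3-2 had 2 reads in Jak2VF against 273 in Dnmt3aKO, a ratio of Dnmt3aKO over Jak2VF of 134 with a counting interval from 36.8 to 1112. Igkv14-126 (-6.52), Ighv11-2 (-6.10) and Igkv1-135 (-3.94) fell with it by their fitted values, and the reads of such near-identical segments may be shared between copies. Apoc1, an apolipoprotein of the Apoe cluster, stood at 0.365, 0.348 and 0.217 CPM in Jak2VF, against 4.99, 6.15 and 5.57 CPM in Dnmt3aKO and a WT mean of 0.253 CPM (-4.14 ± 0.37, adjusted p = 8.0e-08). C2, a complement protease, stood at 0.502, 0.348 and 0.489 CPM in Jak2VF, against 5.3, 5.61 and 5.39 CPM in Dnmt3aKO, with a WT mean of 0.335 CPM (-3.59 ± 0.20, adjusted p = 9.1e-11). Against WT neither was called in Jak2VF (0.29 for Apoc1 and 0.41 for C2), and both were higher in Dnmt3aKO (4.43 for Apoc1 and 4.0 for C2). Krt7, a keratin, had the same order, with -3.21 between the genotypes, 0.18 in Jak2VF against WT and 3.39 in Dnmt3aKO against WT. Mcoln3, a calcium channel of endosomes and lysosomes, stood at 2.46, 2.68 and 1.95 CPM in Jak2VF, against 22.4, 20.6 and 22.7 CPM in Dnmt3aKO and a WT mean of 4.07 CPM (-3.21 ± 0.21). Calca, the precursor of calcitonin and the neuropeptide CGRP (-3.65), Nrap, an actin-binding muscle protein (-3.37), and Ccl22, a chemokine that draws CCR4-bearing T cells (-2.96), complete the falls.

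**Figure D3:**
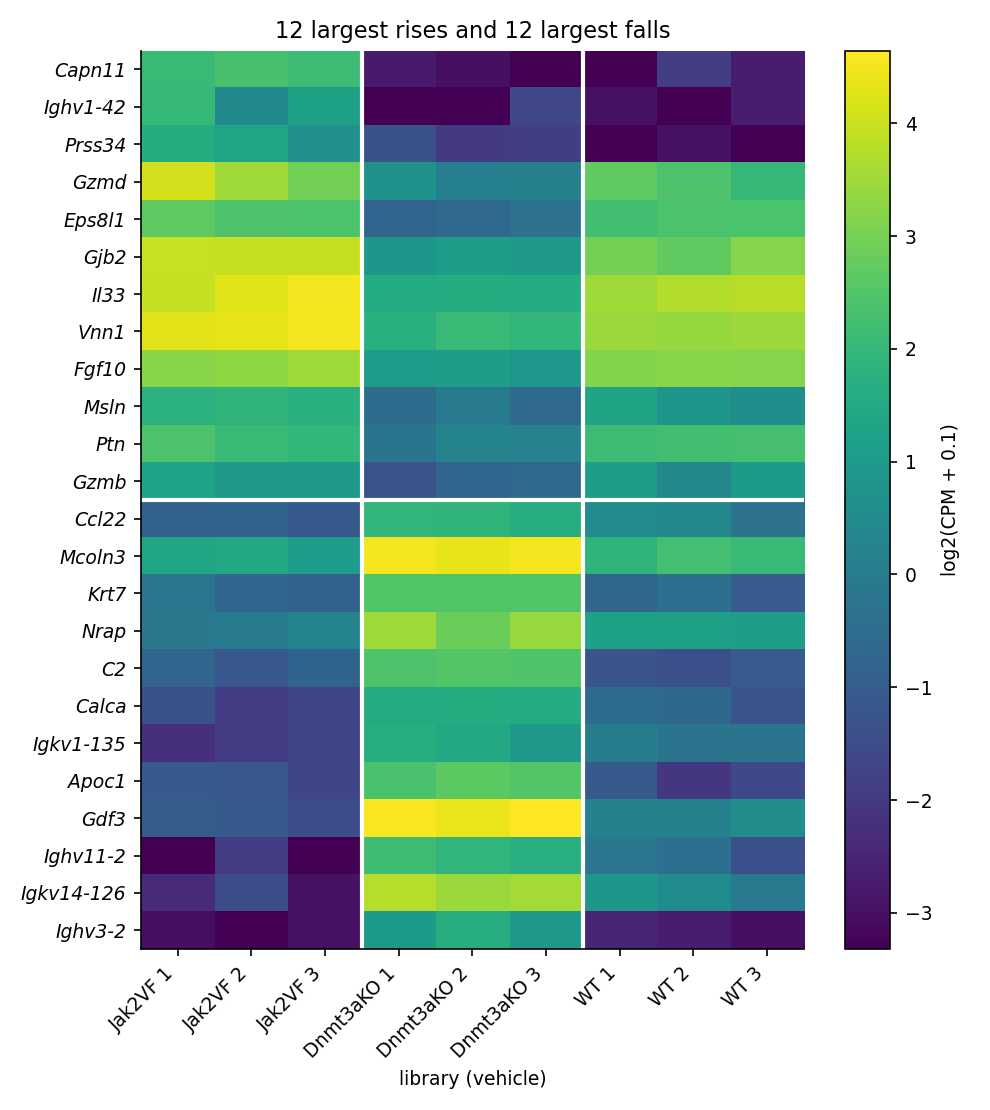
Heat map of log2(CPM + 0.1) for the 12 largest rises (upper block) and 12 largest falls (lower block) in each vehicle-treated library of Jak2VF, Dnmt3aKO and WT (columns). Eps8l1, Fgf10 and Ptn look alike in Jak2VF and WT, and Apoc1, C2 and Krt7 are high in the Dnmt3aKO columns alone.

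Genes of JAK-STAT signalling were more often lower than higher in Jak2VF. Of 26 tested, 3 rose and 11 fell, with a median log2 fold change of -0.24 against 0.01 over all genes. The falls included Stat3, a STAT activated by IL-6 family receptors, at 202, 191 and 218 CPM in Jak2VF, against 276, 274 and 288 CPM in Dnmt3aKO (-0.46 ± 0.09, adjusted p = 0.00139), the kinase Tyk2 (-0.46), the repressor Bcl6 (-0.43) and the kinase Pim1 (-0.44). The rises were the feedback inhibitors Socs2 (0.43) and Socs1 (0.79) and the regulator Id1 (1.53); Socs1 and Id1 were named after their values were seen. Without Jak2VF library 1 or Dnmt3aKO library 3, 7 genes fell, and without Jak2VF library 1 or Dnmt3aKO library 1 only 1 rose.

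Calls among cytokine receptors that signal through JAK2 went one way with vehicle. None of 15 rose, 8 fell and 7 were not called (median -0.33). With LDL 1 rose and 6 fell. Csf3r, the G-CSF receptor, stood at 33.9, 35.7 and 36.4 CPM in Jak2VF, against 67.1, 73.0 and 65.3 CPM in Dnmt3aKO, with WT at 28.2, 29.9 and 32.2 CPM (-0.95 ± 0.10, adjusted p = 1.1e-06). Epor, the erythropoietin receptor, stood at 1.16, 0.991 and 0.977 CPM in Jak2VF, against 3.68, 4.0 and 4.06 CPM in Dnmt3aKO (-1.90 ± 0.21, adjusted p = 1.4e-06). Against WT neither was called in Jak2VF (0.23 for Csf3r and -0.61 for Epor), and both were higher in Dnmt3aKO (1.19 for Csf3r and 1.29 for Epor). Csf2rb, the beta chain shared by the GM-CSF, IL-3 and IL-5 receptors, was at 206, 188 and 191 CPM in Jak2VF, against 323, 313 and 298 CPM in Dnmt3aKO (-0.67 ± 0.08), and its near-copy Csf2rb2, which may share reads with it, fell by 0.45.

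Lipid genes were mostly lower in Jak2VF. Of 27 tested PPAR targets and lipid uptake and storage genes, 14 fell and 1 rose in Jak2VF (median -0.49), and their summed level was 4660 to 4970 CPM in Jak2VF, 6870 to 7740 CPM in Dnmt3aKO and 5340 to 5750 CPM in WT. Pparg, the nuclear receptor that activates Cd36, stood at 2.62, 3.16 and 2.63 CPM in Jak2VF, against 6.25, 6.63 and 6.15 CPM in Dnmt3aKO (-1.18 ± 0.13, adjusted p = 2.4e-06). Lipa, the lysosomal acid lipase that frees cholesterol from taken-up lipoprotein, stood at 305, 324 and 336 CPM in Jak2VF, against 693, 602 and 627 CPM in Dnmt3aKO (-0.99 ± 0.09, adjusted p = 9.4e-08). For Pparg and Lipa the groups did not overlap, and WT lay between them. Hilpda, a lipid droplet protein that inhibits triglyceride lipase, fell by 1.16.

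Of 16 tested LXR targets and apolipoproteins, 2 rose and 8 fell in Jak2VF, and 5 fell without Jak2VF library 2. Abcg1, which exports cholesterol to HDL, stood at 16.8, 15.6 and 17.9 CPM in Jak2VF, against 37.8, 36.6 and 33.8 CPM in Dnmt3aKO (-1.11 ± 0.10, adjusted p = 1.5e-07). Mylip, the ligase that degrades the LDL receptor, fell by 0.44, and Rxra, the partner receptor of LXR and PPAR, by 0.56. Cholesterol biosynthesis genes, which SREBP2 controls, moved the other way. Of 26, 12 rose and 1 fell (median 0.25), including Cyp51 (0.57), Acat2 (0.62) and Hmgcs1 (0.50), enzymes of the pathway. The summed level of the pathway was 1300 to 1350 CPM in Jak2VF, 1130 to 1190 CPM in Dnmt3aKO and 1300 to 1440 CPM in WT.

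Scavenger and phagocytic receptors fell with Cd36: of 25, 12 fell and 2 rose (median -0.38). Clec4e (Mincle), a receptor for mycobacterial glycolipid, stood at 33.8, 31.0 and 27.9 CPM in Jak2VF, against 71.5, 78.6 and 76.9 CPM in Dnmt3aKO (-1.29 ± 0.12, adjusted p = 1.2e-07). Lysosome genes fell in 12 of 25 and rose in none (median -0.29). Gpnmb, a lysosomal glycoprotein abundant in lipid-laden macrophages, stood at 2840, 2640 and 2510 CPM in Jak2VF, against 5460, 4840 and 4910 CPM in Dnmt3aKO (-0.93 ± 0.08, adjusted p = 6.9e-08). Subunits of the lysosomal proton pump, Atp6v0d2 (-1.01) and Atp6v1b2 (-0.51), and the calcium channel Mcoln1 (-0.52) were lower too.

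Platelet lineage genes were more often higher than lower in Jak2VF. Of 30 megakaryocyte and platelet genes 12 rose and 3 fell (median 0.45); 7 rose without Dnmt3aKO library 2. Ppbp, a platelet chemokine, stood at 60.8, 46.7 and 37.8 CPM in Jak2VF, against 19.6, 17.2 and 19.6 CPM in Dnmt3aKO and 31.5, 27.9 and 23.5 CPM in WT (1.36 ± 0.13, adjusted p = 3.2e-07). F2rl2, a thrombin receptor of platelets, stood at 3.31, 2.89 and 3.12 CPM in Jak2VF, against 1.43, 1.07 and 1.44 CPM in Dnmt3aKO, with WT at 0.573, 0.311 and 0.289 CPM (1.24 ± 0.23). Zfpm1, the partner of GATA1, rose by 0.82, and Plek, a protein kinase C substrate, fell by 0.52. Pf4, a defining platelet chemokine, had a log2 fold change of 0.40 (adjusted p = 0.155), and Thbs1, the member with most reads, overlapped between the genotypes (adjusted p = 0.993). The summed level was 6980 to 9470 CPM in Jak2VF, 7740 to 8020 CPM in Dnmt3aKO and 6140 to 7000 CPM in WT, and most of these reads were of Thbs1. In bulk RNA, more cells of a type and more RNA per cell cannot be told apart.

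Mast cell and basophil genes rose in 7 of 13 and fell in 1 (median 0.57), with Cpa3 (1.61) and Mcpt8 (1.42), proteases of these cells, among the rises. Cpa3 averaged 0.72 CPM in Jak2VF and 0.233 CPM in Dnmt3aKO, and Mcpt8 5.4 and 2.02 CPM. Kit, a defining receptor of mast cells, was not called (-0.04), and Fcer1a, Cma1, Tpsb2, Tpsab1 and Mcpt4 had too few reads to test. The list's summed level was 129 to 132 CPM in Jak2VF, 105 to 108 CPM in Dnmt3aKO and 105 to 117 CPM in WT. Most of these reads were of Il1rl1, Mitf and Il6, of which Mitf fell (-0.50) and the others rose. Of 9 erythroid genes 4 rose, all of them globin genes, and 1 fell, Epor (-1.90). The alpha globins Hba-a1 and Hba-a2 are near-identical copies, as are the beta globins Hbb-bs and Hbb-bt. Means of these 4 globins ran from 0.405 to 1.39 CPM in Jak2VF and from 0.133 to 0.624 CPM in Dnmt3aKO. The rises numbered 1 without any 1 of the Dnmt3aKO libraries or Jak2VF library 3, 2 without Jak2VF library 1, and 1 with the length trend removed. Klf1, which defines the red cell lineage, was under 1 CPM in every group.

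Cell division genes were higher in Jak2VF. Of 25 mitosis genes 18 rose and none fell (median 0.54), and of 27 DNA replication genes 15 rose and none fell (median 0.31). Cdk1, the kinase that drives mitosis, stood at 132, 130 and 116 CPM in Jak2VF, against 83.7, 88.2 and 83.9 CPM in Dnmt3aKO and 136, 136 and 130 CPM in WT (0.57 ± 0.09, adjusted p = 1.1e-04). Ccnb2, a mitotic cyclin, rose by 0.86, and Tyms, which makes thymidylate, by 0.75. The summed mitosis level was 1760 to 2130 CPM in Jak2VF, 1310 to 1380 CPM in Dnmt3aKO and 2110 to 2440 CPM in WT, so that Dnmt3aKO was the lowest of the 3. Cdk1 differed by -0.09 in Jak2VF and -0.66 in Dnmt3aKO against WT.

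Imprinted genes, which are expressed from 1 parental copy under the control of DNA methylation, rose in 12 of 23 and fell in none (median 0.68). H19, a noncoding RNA of growth control, stood at 253, 355 and 329 CPM in Jak2VF, against 115, 121 and 104 CPM in Dnmt3aKO and 277, 270 and 239 CPM in WT (1.46 ± 0.17, adjusted p = 2.8e-06). Igf2, the growth factor that neighbours H19 and is expressed from the opposite parental copy, averaged 15.8 ± 3.51 CPM in Jak2VF and 6.25 ± 0.394 CPM in Dnmt3aKO (SD, n = 3 each), without overlap (log2 fold change 1.34 ± 0.16, adjusted p = 3.2e-06). Rian, a noncoding RNA of the Dlk1-Meg3 cluster, stood at 39.3, 50.1 and 50.6 CPM in Jak2VF, against 14.4, 14.9 and 17.2 CPM in Dnmt3aKO (1.59 ± 0.17). Against WT none of the 3 was called in Jak2VF (0.26 for H19, -0.18 for Igf2 and 0.26 for Rian), and all 3 were lower in Dnmt3aKO (-1.21 for H19, -1.52 for Igf2 and -1.33 for Rian). Slc38a4, an amino acid transporter, rose by 1.11. Germline genes, which DNA methylation keeps silent, were mostly too low to test: of 8 tested out of 25 listed, 3 fell and 1, Capn11, rose. Dppa3 (Stella), an egg and germ cell protein, fell by 2.84 and Stag3, a meiotic cohesin, by 1.00. Tex11, a meiosis gene, had 1 read in Jak2VF against 46 in Dnmt3aKO, a ratio of Dnmt3aKO over Jak2VF of 45.2 with a counting interval from 7.71 to 1822. Of 17 genes of the DNA methylation machinery 4 rose and 2 fell while the list's median was negative (-0.23), and the rises numbered 1 without Dnmt3aKO library 2 or 3 and 2 without Jak2VF library 1 or 2, while 5 fell without Jak2VF library 3 or with the length trend removed, 1 without Jak2VF library 1, and none without Jak2VF library 2, without any 1 of the Dnmt3aKO libraries or with scaling by library totals. Tdg, a glycosylase of demethylation, rose by 0.43.

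Among 29 TGF-beta family ligands and receptors, 7 rose and 5 fell. Gdf3 was the largest change, and the ligands Bmp4 and Gdf10 moved against it. Bmp4 stood at 16.1, 21.1 and 18.2 CPM in Jak2VF, against 6.61, 7.8 and 7.96 CPM in Dnmt3aKO (1.31 ± 0.17, adjusted p = 1.0e-05). Gdf10 stood at 9.24, 10 and 13 CPM in Jak2VF, against 3.53, 5.18 and 3.43 CPM in Dnmt3aKO (1.41 ± 0.19). The co-receptor Eng fell by 0.58. Of 21 integrin chains 3 rose and 6 fell, but 7 rose with the length trend removed, 5 with scaling by library totals, none without Dnmt3aKO library 2 and 1 without Jak2VF library 3. Itgb2, the beta 2 chain of leukocyte integrins, stood at 286, 296 and 276 CPM in Jak2VF, against 484, 419 and 447 CPM in Dnmt3aKO (-0.65 ± 0.07, adjusted p = 8.7e-07), and its partners Itgax (-0.80), Itgal (-0.46) and Itgam (-0.38) fell as well.

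**Figure D4:**
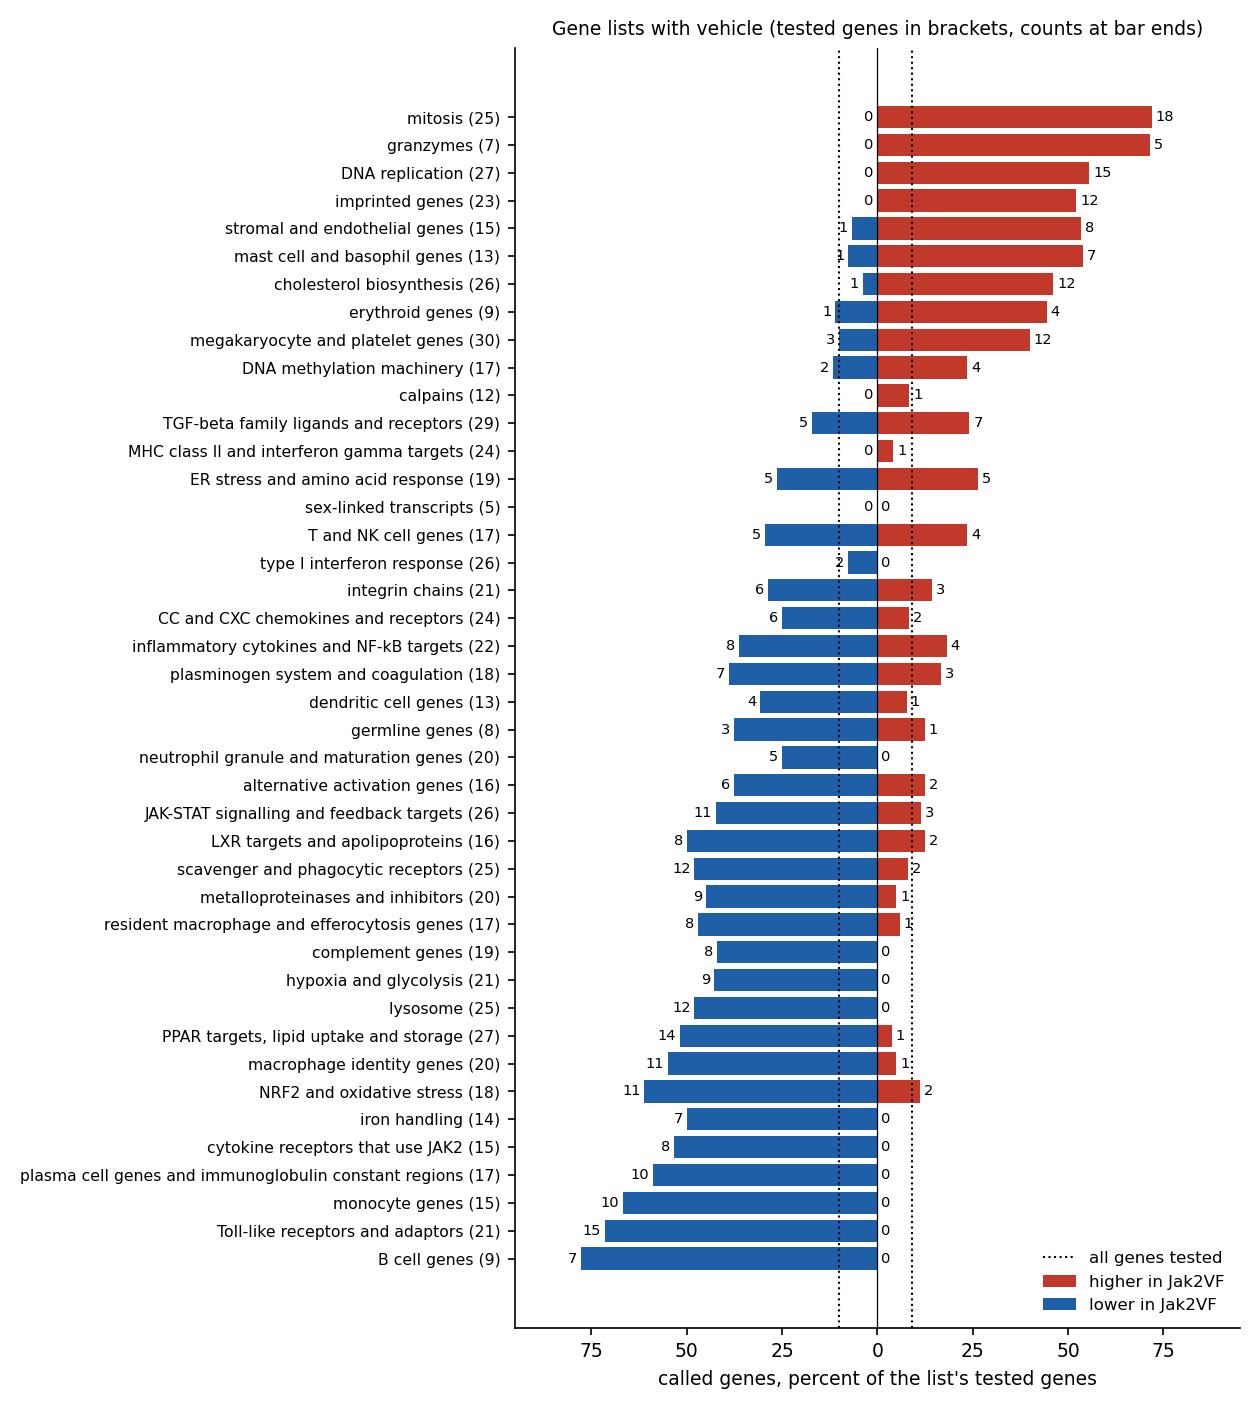
Share of each list's tested genes that were higher (red, right) or lower (blue, left) in Jak2VF than in Dnmt3aKO with vehicle, in percent (x axis); tested genes are in brackets and counts stand at the bar ends. Dotted lines give the shares over all 19444 genes, 9.19% higher and 9.99% lower; mitosis and Toll-like receptor genes reach far past them in opposite directions.

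Macrophage and monocyte genes were mostly lower in Jak2VF. Of 20 macrophage identity genes 11 fell and 1 rose (median -0.38); 6 fell without Dnmt3aKO library 1 or Jak2VF library 2, and 7 without Dnmt3aKO library 3 or Jak2VF library 3. Adgre1, which encodes F4/80, stood at 707, 748 and 785 CPM in Jak2VF, against 1120, 1060 and 1100 CPM in Dnmt3aKO and 1190, 1160 and 1230 CPM in WT (-0.55 ± 0.07, adjusted p = 4.7e-06). The transcription factor Irf8 (-0.55) and the pore-forming Mpeg1 (-0.62) fell as well. Resident macrophage and efferocytosis genes fell in 8 of 17 and rose in 1, with the clearance receptors Stab1 (-0.88) and Marco (-2.25) and the bridging protein Gas6 (-0.62) lower, and the receptor Tyro3 higher (0.62). Monocyte genes fell in 10 of 15 and rose in none (median -0.71). Ccr2, the receptor that brings monocytes out of the marrow, stood at 151, 190 and 190 CPM in Jak2VF, against 350, 381 and 361 CPM in Dnmt3aKO (-1.04 ± 0.16, adjusted p = 1.1e-04). F13a1 (-0.76) fell with it. Summed monocyte levels were 3350 to 5050 CPM in Jak2VF, 6180 to 7500 CPM in Dnmt3aKO and 3640 to 4500 CPM in WT.

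Genes of innate sensing were more often lower than higher in Jak2VF. Of 21 Toll-like receptors and adaptors 15 fell and none rose (median -0.50), the receptors Tlr13 (-0.72) and Tlr6 (-0.43) among them. Irak3, a brake on Toll-like receptor signalling, stood at 30.8, 26.9 and 27.1 CPM in Jak2VF, against 41.4, 51.0 and 50.1 CPM in Dnmt3aKO (-0.75 ± 0.10, adjusted p = 1.2e-05). Complement genes fell in 8 of 19 and rose in none, with the receptors C3ar1 (-0.52) and C5ar1 (-0.48) beside C2. Of 22 inflammatory cytokines and NF-kB targets 4 rose and 8 fell, and 2 rose without Dnmt3aKO library 2 or with the length trend removed. Nos2, the inducible nitric oxide synthase, stood at 32.4, 30.8 and 31.4 CPM in Jak2VF, against 101, 96.7 and 101 CPM in Dnmt3aKO and 23.2, 31.8 and 17.7 CPM in WT (-1.66 ± 0.17, adjusted p = 4.1e-07). Il1rn, the natural antagonist of the IL-1 receptor, moved the other way, at 99.3, 102 and 102 CPM in Jak2VF, against 49.6, 49.5 and 44.5 CPM in Dnmt3aKO (1.08 ± 0.09, adjusted p = 2.4e-08). Ptx3, a soluble pattern receptor, was at 395, 315 and 272 CPM in Jak2VF, against 157, 192 and 180 CPM in Dnmt3aKO (0.89 ± 0.11). Among 24 chemokines and their receptors 2 rose and 6 fell, with Cx3cr1 lower (-0.46); with the length trend removed 1 rose and 10 fell, and 5 rose without Jak2VF library 3.

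Other activation programmes gave few or mixed calls. Alternative activation genes rose in 2 of 16 and fell in 6, or 3 without Dnmt3aKO library 1, Dnmt3aKO library 3 or Jak2VF library 2. The transglutaminase Tgm2 (0.48) and Socs2 (0.43) were higher. The falls were Ccl22 (-2.96), Irf4 (-1.83), Pdcd1lg2 (-0.89), the glucan receptor Clec7a (-0.64), Mrc1 (-0.60) and Arg1 (-0.57). Only H2-DMa, a peptide loader, was called among 24 MHC class II and interferon gamma targets (0.77), and only Cmpk2 (-1.31) and Rsad2 (-1.16), both antiviral, among 26 type I interferon response genes, a share under that over all genes; these 3 were named after their values were seen. SEs reached 0.55 among the interferon response genes, and an uncalled gene is not shown to be equal.

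Iron and oxidative stress genes were more often lower than higher in Jak2VF. Slc40a1, ferroportin, the cellular iron exporter, stood at 19.3, 24.8 and 22.9 CPM in Jak2VF, against 115, 124 and 120 CPM in Dnmt3aKO and 62.3, 50.7 and 46.7 CPM in WT (-2.42 ± 0.15, adjusted p = 2.7e-10). Hmox1, which breaks down heme, stood at 443, 456 and 416 CPM in Jak2VF, against 1420, 1220 and 1300 CPM in Dnmt3aKO, with WT at 732, 688 and 536 CPM (-1.58 ± 0.13, adjusted p = 2.9e-08). Both were lower than WT in Jak2VF (-1.25 for Slc40a1 and -0.57 for Hmox1) and higher than WT in Dnmt3aKO (1.17 for Slc40a1 and 1.01 for Hmox1). Slc11a1, the phagosomal metal transporter, fell by 1.05 and Slc25a37, a mitochondrial iron importer, by 0.68. Of 14 iron handling genes 7 fell and none rose. Of 18 NRF2 and oxidative stress genes 11 fell and 2 rose (median -0.48), with Gclm, a subunit of the enzyme that starts glutathione synthesis (-0.97), the cystine transporter Slc7a11 (-1.13) and glutathione reductase, Gsr (-0.61), among the falls. Hypoxia and glycolysis genes fell in 9 of 21 and rose in none. Egln3, an oxygen-sensing hydroxylase (-1.16), Pfkfb3, a regulator of glycolysis (-1.04), and Vegfa (-0.73) were among the falls. Of the glycolytic enzymes, Hk2 (-0.83) and Pfkp (-0.28) fell. Hk1, Gpi1, Pfkl, Aldoa, Tpi1, Pgk1, Pgam1, Eno1, Pkm and Ldha were not called, at -0.14 to 0.17. The list summed to 14900 to 18000 CPM in Jak2VF and 17200 to 18200 CPM in Dnmt3aKO.

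The ER stress and amino acid response list was divided. Of its 19 genes 5 rose and 5 fell, or 3 without Jak2VF library 1. Phgdh, the first enzyme of serine synthesis, stood at 127, 93.5 and 73.6 CPM in Jak2VF, against 34.7, 36.2 and 35.4 CPM in Dnmt3aKO (1.47 ± 0.21, adjusted p = 3.0e-05). Asns, asparagine synthetase, rose by 0.96 and the transporter Slc7a5 by 1.14, while the stress factor Atf3 fell by 0.80. Metalloproteinases and their inhibitors fell in 9 of 20 and rose in 1. Mmp13, a collagenase, stood at 106, 132 and 146 CPM in Jak2VF, against 270, 359 and 302 CPM in Dnmt3aKO (-1.28 ± 0.18, adjusted p = 2.5e-05), and Mmp12, the macrophage elastase, fell by 0.90. Plasminogen and coagulation genes fell in 7 of 18 and rose in 3, with factor X, F10 (-1.23), and the protein C receptor, Procr (-1.14), lower and Plat, tissue plasminogen activator, higher (0.65).

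Markers of other cells differed between the groups, and their part in the results above was not tested. B cell genes fell in 7 of 9 (median -1.60) and summed to 89.8 to 103 CPM in Jak2VF, 147 to 154 CPM in Dnmt3aKO and 128 to 144 CPM in WT. Plasma cell and immunoglobulin constant region genes, a list added after the data were seen, fell in 10 of 17. Granzymes, also added then, rose in 5 of 7, with 45 reads of Gzma in Jak2VF against 2 in Dnmt3aKO (ratio 22.9, counting interval 5.99 to 195), and summed to 43.8 to 85.5 CPM in Jak2VF, 15.2 to 17.9 CPM in Dnmt3aKO and 31.1 to 42.4 CPM in WT. T and NK cell genes rose in 4 of 17 and fell in 5, with 2 rises without Dnmt3aKO library 1, Dnmt3aKO library 3 or Jak2VF library 3 and 3 falls without Dnmt3aKO library 3 or Jak2VF library 1. Cd4, which some macrophages also make, stood at 14.6, 16.4 and 14.9 CPM in Jak2VF, against 35.6, 41.6 and 40.7 CPM in Dnmt3aKO (-1.36 ± 0.08), whereas Cd3d and Cd3g, which define T cells, were under 1 CPM on average in both groups. Stromal and endothelial genes rose in 8 of 15 and fell in 1, and 5 rose without Dnmt3aKO library 1 or Jak2VF library 3. Their sum was 18600 to 22500 CPM in Jak2VF, 15200 to 15800 CPM in Dnmt3aKO and 15700 to 16600 CPM in WT, with Pecam1 lower (-1.49) and Cdh5 higher (1.35), both endothelial adhesion molecules. Neutrophil genes fell in 5 of 20 and rose in none, with 3 falls without Dnmt3aKO library 1, Dnmt3aKO library 3 or Jak2VF library 1 and 8 with the length trend removed. They summed to 788 to 979 CPM in Jak2VF, 997 to 1060 CPM in Dnmt3aKO and 326 to 401 CPM in WT, and S100a9, the member with most reads, overlapped between the genotypes (0.10, adjusted p = 0.727). Dendritic cell genes rose in 1 of 13 and fell in 4, with Irf4 (-1.83), Ccr7 (-1.56) and Itgax (-0.80) lower. The X-inactivation transcript Xist was at 0.134 to 0.271 CPM in Jak2VF and 0.0756 to 0.306 CPM in Dnmt3aKO, and the Y-linked Ddx3y was present in every library.

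The LDL libraries of the same genotypes share no library with the vehicle libraries and give the comparison a second reading. Whether vehicle and LDL cultures came from the same mice is not known, and both were fitted together. The readings may therefore not be independent. With LDL 3042 of 19444 genes (15.6%) were called, 1674 (8.61%) higher and 1368 (7.04%) lower in Jak2VF. Of these, 2061 were called in the same direction with vehicle, 55.3% of the vehicle calls and 67.8% of the LDL calls, and 2 in the opposite direction. Of the 850 vehicle calls of at least 2-fold, 571 (67.2%) were called the same way with LDL. The sign was the same for 96.7% of the vehicle calls, against 66.2% of the genes not called with vehicle. Mitosis and DNA replication genes rose in 22 of 25 and 22 of 27 with LDL, imprinted genes in 9 of 23, and Toll-like receptors and adaptors fell in 10 of 21. Cholesterol biosynthesis genes, of which 12 rose and 1 fell with vehicle, rose in 2 and fell in 2 of 26 with LDL. Megakaryocyte and platelet genes rose in 5 and fell in 3 of 30. The change of these lists between vehicle and LDL was not tested. The length trend seen with vehicle, a median difference of 0.16 in the shortest and -0.15 in the longest 20% of genes, was 0.01 and -0.01 with LDL.

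The genotype difference changed between vehicle and LDL for 17 genes (0.0874%) at an adjusted p under 0.05, and for 1244 at an unadjusted p under 0.05. Abcg1, lower in Jak2VF with vehicle, stood at 172, 160 and 163 CPM in Jak2VF and 177, 168 and 172 CPM in Dnmt3aKO with LDL. Its vehicle difference minus its LDL difference was -1.04 ± 0.14 (adjusted p = 0.00252). Il1rn stood at 75.8, 78.8 and 83.2 CPM in Jak2VF with LDL, against 60.9, 61.3 and 69.8 CPM in Dnmt3aKO, a smaller difference than with vehicle by 0.77 ± 0.12 (adjusted p = 0.0135). Ptges, which makes prostaglandin E2, overlapped with vehicle at 46.3, 41.0 and 36.8 CPM in Jak2VF and 46.2, 45.8 and 40.7 CPM in Dnmt3aKO. With LDL it stood at 68.9, 75.9 and 65.1 CPM in Jak2VF, against 173, 165 and 174 CPM in Dnmt3aKO, and the difference of differences was 1.19 ± 0.14 (adjusted p = 4.8e-04).

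**Figure D5:**
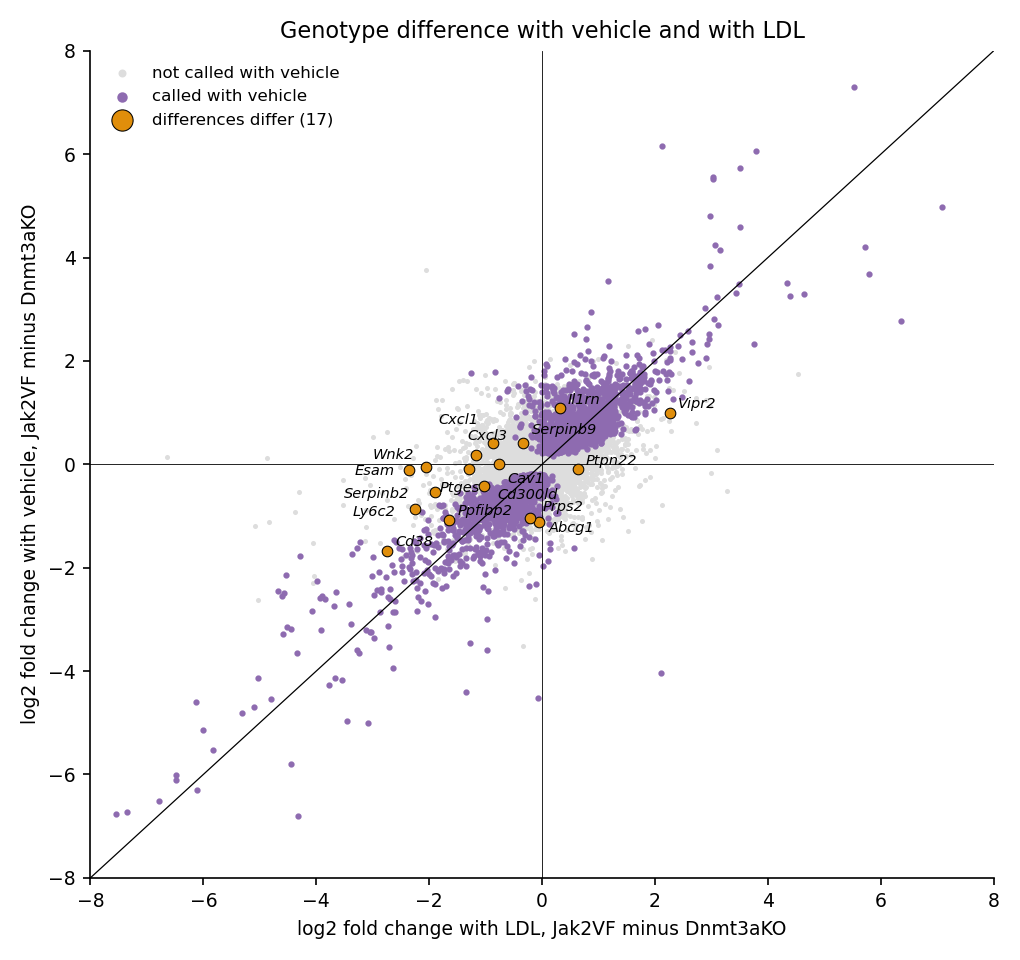
Log2 fold change, Jak2VF minus Dnmt3aKO, with vehicle (y axis) against the same with LDL (x axis); each point is a gene, purple where called with vehicle, orange for the 17 genes whose difference changed between treatments, and the diagonal marks equal values. Most vehicle calls lie in the quadrants of equal sign, and Esam, Ptges and Abcg1 lie near 0 on 1 axis and away from it on the other.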

How the data were processed

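RNA-seq libraries were made by the submitters, whose labels name both ribosomal RNA depletion and poly(A) selection. Reads were placed on mm10, per the submitters' processing notes; the sources used here do not name the aligner, the counter, its strand setting or the gene models, so reads of overlapping antisense genes cannot be told apart. The deposited table calls its values normalized, but they are whole-number counts per gene whose totals differ 1.82-fold between libraries, from 24105237 to 43904761, and were used as raw counts. It holds 52550 genes. Columns were matched to samples by the names in their descriptions. The other deposited table, of a batch that holds neither genotype, was not used here.

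Of the 24 libraries in 8 groups of 3, a gene was kept where 3 or more libraries had 10 or more counts of it (19444 genes, 99.9% of counts). Counts were scaled by TMM and tested with edgeR 4.0.16 (R 4.3.3) by its quasi-likelihood test. The fit had 1 mean per group and a spread estimated for each gene. The common biological coefficient of variation, a summary over genes, was 0.137. P-values were adjusted by Benjamini-Hochberg over all genes, with a threshold of 0.05. CPM are TMM-scaled. Errors of log2 fold changes are approximate SE, the size of the change divided by the square root of the test's F statistic. Levels are not divided by length, so a gene with most reads of a list need not be the one with most transcripts. The script was first tested on simulated counts with the same spread for every gene. There edgeR recovered 74 of 97 changes of 2-fold (76.3%) and 30 of 98 changes of 1.5-fold (30.6%) with vehicle. Vehicle libraries of the same title number did not deviate together (correlations of deviations -0.196, 0.092 and 0.108). Those of different numbers ran from -0.277 to 0.267. With 3 libraries a group this cannot show whether same-numbered libraries were prepared together. Alternatives were other scalings and filters, DESeq2 1.42.0, limma 3.58.1 (voom), other sets of libraries, replicate blocks, leaving out each library, and, chosen after seeing the data, removal of gene length and GC trends.

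Named were the targeted genes, the 4 genes given with the comparison, the 12 largest called rises and falls with a higher group mean of at least 2 CPM and no overlap between groups, the 4 members of smallest adjusted p in any list with 3 or more calls, and the highest members of lists of other cell types. Some genes that this rule names are not reported here. Members and lists were chosen with earlier results of these data known. Coordinates come from the GENCODE annotation of mm10, and promoter windows from RefSeq; 116 of 167 named genes had a window.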

Additional observations from a re-analysis of the deposited data

Results flagged for a closer look

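For 17 genes the genotype difference with vehicle differed from that with LDL, by edgeR's test of the difference of differences with Benjamini-Hochberg adjustment over 19444 genes. All values here are the vehicle difference minus the LDL difference, each difference being Jak2VF minus Dnmt3aKO on the log2 scale.

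The difference was lower with LDL than with vehicle for 13 genes, and for Il1rn it was positive with both. Ptges, the prostaglandin E2 synthase, changed by 1.19 and Esam, an endothelial adhesion molecule, by 2.24. Esam stood at 2.73, 3.39 and 2.89 CPM in Jak2VF with LDL, against 16.1, 14.1 and 16.2 CPM in Dnmt3aKO with LDL, and at 2.87, 2.6 and 2.58 CPM in Jak2VF with vehicle, against 3.83, 2.45 and 2.47 CPM in Dnmt3aKO with vehicle. Among neutrophil-attracting chemokines, Cxcl1 changed by 1.28 and Cxcl3 by 1.35. Cxcl3 stood at 246, 219 and 203 CPM in Jak2VF with LDL, against 490, 507 and 505 CPM in Dnmt3aKO with LDL, and overlapped between the genotypes with vehicle. Ly6c2, a marker of inflammatory monocytes, changed by 1.38 and stood at 6.61, 6.51 and 6.49 CPM in Jak2VF with LDL, against 26.4, 36.6 and 30.3 CPM in Dnmt3aKO with LDL. The serpins Serpinb2 and Serpinb9 changed by 1.35 and 0.75, the NAD-consuming enzyme Cd38 by 1.07, caveolin 1 (Cav1) by 0.77, the IL-1 receptor antagonist Il1rn by 0.77, the receptor Cd300ld by 0.60, Ppfibp2 by 0.58 and the kinase Wnk2 by 1.99.

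The difference was higher with LDL than with vehicle for 4 genes. The cholesterol exporter Abcg1 changed by -1.04, Prps2, which makes the nucleotide precursor PRPP, by -0.82, the phosphatase Ptpn22 by -0.72 and the receptor Vipr2 by -1.26. Prps2 stood at 32.8, 35.1 and 38.3 CPM in Jak2VF with vehicle, against 75.3, 68.0 and 73.2 CPM in Dnmt3aKO with vehicle, and at 34.5, 32.2 and 35.0 CPM in Jak2VF with LDL, against 38.8, 39.4 and 39.5 CPM in Dnmt3aKO with LDL.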

How the results depend on the processing

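With vehicle, 3729 genes were called. The count was 2409 with a replicate block by title number among only the 6 libraries compared, 850 with a fold of at least 2 required as well, and 2425 to 4573 when 1 library was left out. Under the other alternatives it lay between 3132 (only the 6 libraries in the fit) and 4761 (length and GC trends removed). The block over all groups gave 4021 by title number and 3415 by description number. Whether either number pairs the libraries is not known. With LDL, 3042 genes were called, against 4631 with the title block among only those 6 libraries, 889 with the fold rule and 2152 to 2543 with 1 library left out. For the difference of differences 17 genes were called, against 8 by library totals, 49 with no filter, 64 by DESeq2, 7 with the description block, 37 with the length trend removed, 46 with length and GC trends removed, 10 with the fold rule and 3 to 13 with 1 library left out. The cause of these shifts was not tested, apart from the fold rule, which keeps fewer genes by construction.

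Of 167 named genes 155 were called with vehicle, and 148 of the 167 kept their side of the threshold and their direction under all 26 alternatives. The call was lost under at least 1 alternative for 13 and gained for 6, Tet2, Pf4 and Col1a1 among them. None changed direction. With 3 libraries a group, genes of few reads could be tested only for large differences, and an uncalled gene is not shown to be equal.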
